A study of Mus musculus with 9 samples.

Results

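The loci of the 3 mouse DNA methyltransferase genes Dnmt1, Dnmt3a and Dnmt3b were examined through the reduced representation bisulfite reads that fell on them. Each locus was taken as a fixed window of the mm9 build around the gene: chr12:3800000-3920000 for Dnmt3a (120 kb), chr2:153470000-153520000 for Dnmt3b (50 kb) and chr9:20705000-20765000 for Dnmt1 (60 kb). The windows were set by coordinates, though they were chosen with earlier results of these data known. They hold 470, 171 and 145 CpG positions, 786 of the 1813703 positions listed in at least 1 of the 5 tables used. A position is 1 cytosine of a CpG on 1 strand. All samples were J1 mouse embryonic stem cells of passages 7 to 10 that carry the Dnmt triple knockout (TKO). TKO is 1 sample with no construct, WT carries wild-type Dnmt3a2, WWD and R carry Dnmt3a2 mutants so named by the submitters, and C is a group of the same cells whose labels record no construct. WT, WWD, R and C have 2 numbered samples each, but 1 table stands for both, so a value below is a value of 1 table with no spread between samples, and each test compares the reads of 2 tables and not the conditions. The labels do not give the vector, the promoter that drives the constructs, or whether a line is 1 clone.

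Dnmt1 is the maintenance methyltransferase, which copies CpG methylation onto the new strand after replication, and Dnmt3a and Dnmt3b are the de novo enzymes, which methylate unmethylated CpGs. Dnmt3a has 2 main products: the long Dnmt3a, made from an upstream CpG-island promoter, and the shorter Dnmt3a2, made from a promoter inside the gene and prominent in embryonic stem cells. Promoters in CpG islands are usually kept free of methylation. Bisulfite reads come from genomic DNA, so they report the number of DNA copies that align to a place and the methylation of those copies, and not the amount of RNA or protein. A construct integrated in the genome adds copies of the gene sequence it holds, and its reads align to the endogenous gene where the sequences are the same.

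The promoter sequences are shown because their CpG pattern placed the starts in the build of the tables. The 250 bases before a RefSeq start (GRCm38.p6, plus strand) are printed with each CpG in capitals. They lie at chr12:3806730-3806979 for the first start of Dnmt3a, chr12:3891494-3891743 for Dnmt3a2 and chr2:153649199-153649448 for Dnmt3b, all in GRCm38.p6.
Dnmt3a: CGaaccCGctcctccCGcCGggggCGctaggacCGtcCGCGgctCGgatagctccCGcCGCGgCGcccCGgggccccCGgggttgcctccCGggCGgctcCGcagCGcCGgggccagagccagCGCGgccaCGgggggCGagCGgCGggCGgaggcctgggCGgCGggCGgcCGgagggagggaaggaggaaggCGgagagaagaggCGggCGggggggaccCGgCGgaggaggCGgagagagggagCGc
Dnmt3a2: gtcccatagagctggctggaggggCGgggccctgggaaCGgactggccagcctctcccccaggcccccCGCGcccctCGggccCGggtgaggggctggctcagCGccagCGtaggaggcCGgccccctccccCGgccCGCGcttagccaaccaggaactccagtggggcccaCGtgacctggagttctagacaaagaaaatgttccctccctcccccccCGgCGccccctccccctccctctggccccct
Dnmt3b: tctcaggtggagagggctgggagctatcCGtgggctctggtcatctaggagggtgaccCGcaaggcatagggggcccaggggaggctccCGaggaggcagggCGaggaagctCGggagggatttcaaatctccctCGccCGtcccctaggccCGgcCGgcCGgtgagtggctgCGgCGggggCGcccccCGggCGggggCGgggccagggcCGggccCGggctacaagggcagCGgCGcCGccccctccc
The first start of Dnmt3a has 38 CpGs in these 250 bases, Dnmt3b has 21 and Dnmt3a2 has 15, against a median of 6 over the 32851 RefSeq promoters in the table. CCGG, the palindromic site of MspI, where the fragments begin, occurs 7 times before the first start of Dnmt3a, 6 times before Dnmt3b and 4 times before Dnmt3a2. Of all 32851 promoter stretches of this length, 47.1% hold at least 1 CCGG. In mm9 the same stretches were placed at chr12:3806730-3806979, chr12:3891494-3891743 and chr2:153474935-153475184 by matching the spacing of their CpGs to the listed CpG positions.

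The tables summed to between 133646344 (TKO) and 210131898 (R) read calls, counting a read once at each CpG position it covers. Their median coverage over autosomal positions was 89 reads for TKO, 67 for C, 105 for WT, 77 for WWD and 105 for R. Coverage is given below also as relative coverage, the reads at a position divided by that autosomal median. A table lists only positions with at least 10 reads, so a position that is not listed had at most 9. Because TKO is the reference for every construct, the comparisons of WT, WWD, R and C with TKO share its reads. No table of cells with intact Dnmt genes was used, so a deletion that all 5 tables share cannot be seen by comparing them.

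About 4.3 kb downstream of the Dnmt3a2 start, reads piled up in 3 stacks whose median relative coverage was 9.71, 6.40 and 6.84 for WT and 15.70, 10.60 and 13.96 for R. The highest of 203 other Dnmt3a positions with TKO relative coverage of at least 0.5 was 2.80 for WT and 3.64 for R, so all 3 lay above that range in both tables. For C the stacks were at 9.47, 3.16 and 5.99 against a highest other position of 3.24, and for WWD at 4.73, 1.53 and 3.31 against 3.18. The second stack thus lay within the range of the window in C and WWD, and the third was close to its top in WWD. A further stack, 15951 bases downstream of that start, was above the range in WT and R (3.24 and 5.63), while C (relative coverage 1.99) and WWD (0.60) stayed within the range of the window. R was the highest at both places, WT was next, C lay at or below WT, and WWD was the lowest of these 4 tables. No place of this height was found at Dnmt3b or Dnmt1. The 4 stacks are runs of neighbouring positions on 1 strand at most 45 bases apart with relative coverage of at least 3 in WT and R and at least 4 times that of TKO in both. This definition was chosen after the coverage had been seen, so the stacks are described and their height is not tested. Its minimum of 3 is above 2.80, so a place above the other positions in WT was fixed in advance. TKO had relative coverage of 0.25 in the second stack and was not listed in the last 2. These 3 stacks therefore differ in TKO depth from the 203 positions they are set beside. The 4 stacks together hold 12 positions. Positions of a stack are covered by the same reads and are not independent.

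The first stack is on the forward strand at chr12:3895996-3896035. At chr12:3895996 it held 208 reads for TKO, 634 for C, 1008 for WT, 348 for WWD and 1602 for R. Relative coverage was 2.34 for TKO, 9.46 for C, 9.60 for WT, 4.52 for WWD and 15.26 for R. This is the only stack that TKO covered well, so the other tables can be set against a measured level there. WT had 4.11 times the TKO value (95% exact interval from counting error 3.53 to 4.79), C 4.05 times (3.46 to 4.76), WWD 1.93 times (1.62 to 2.31) and R 6.53 times (5.65 to 7.58). The intervals of C and WT overlap, while those of WWD, WT and R do not overlap one another. PCR copies are counted as reads here, and the intervals cover counting error only. The WWD ratio to TKO had a median of 1.18 over 792940 autosomal positions with TKO relative coverage of at least 0.5. Of these positions, 2.96% reached 2.02, the median WWD ratio of this stack. For WT, C and R the stack medians of 4.16, 4.05 and 6.72 were reached by 0.102%, 0.0611% and 0.0212% of such positions. A stack had to reach at least 4 times TKO in WT and R. Small shares for WT and R were thus fixed by that choice and are a description only.

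The second stack is on the reverse strand at chr12:3896060-3896087, in the bases that follow the first. At chr12:3896087 it had 23 reads for TKO, 208 for C, 667 for WT, 111 for WWD and 1085 for R. The third stack is on the forward strand at chr12:3896086-3896127 and starts at the same CpG where the second begins on the reverse strand. At chr12:3896110 TKO was not listed, C had 402 reads, WT 722, WWD 255 and R 1471. The fourth stack is at chr12:3907695-3907719 on the forward strand. TKO was again not listed there, and at chr12:3907703 C had 133 reads, WT 341, WWD 46 and R 591. In all 4 stacks the order was R, WT, C, WWD and TKO from high to low, though in the first stack the ratio of C to WT at chr12:3895996 was 0.986 with a 95% counting interval of 0.891 to 1.09. Exons and introns at the stacks are not given, since no mm9 annotation was used. With TKO set at 9 reads where it was not listed, the median ratio to TKO in the third stack was at least 59.3 for C, 67.6 for WT, 32.7 for WWD and 138 for R.

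**Figure D1:**
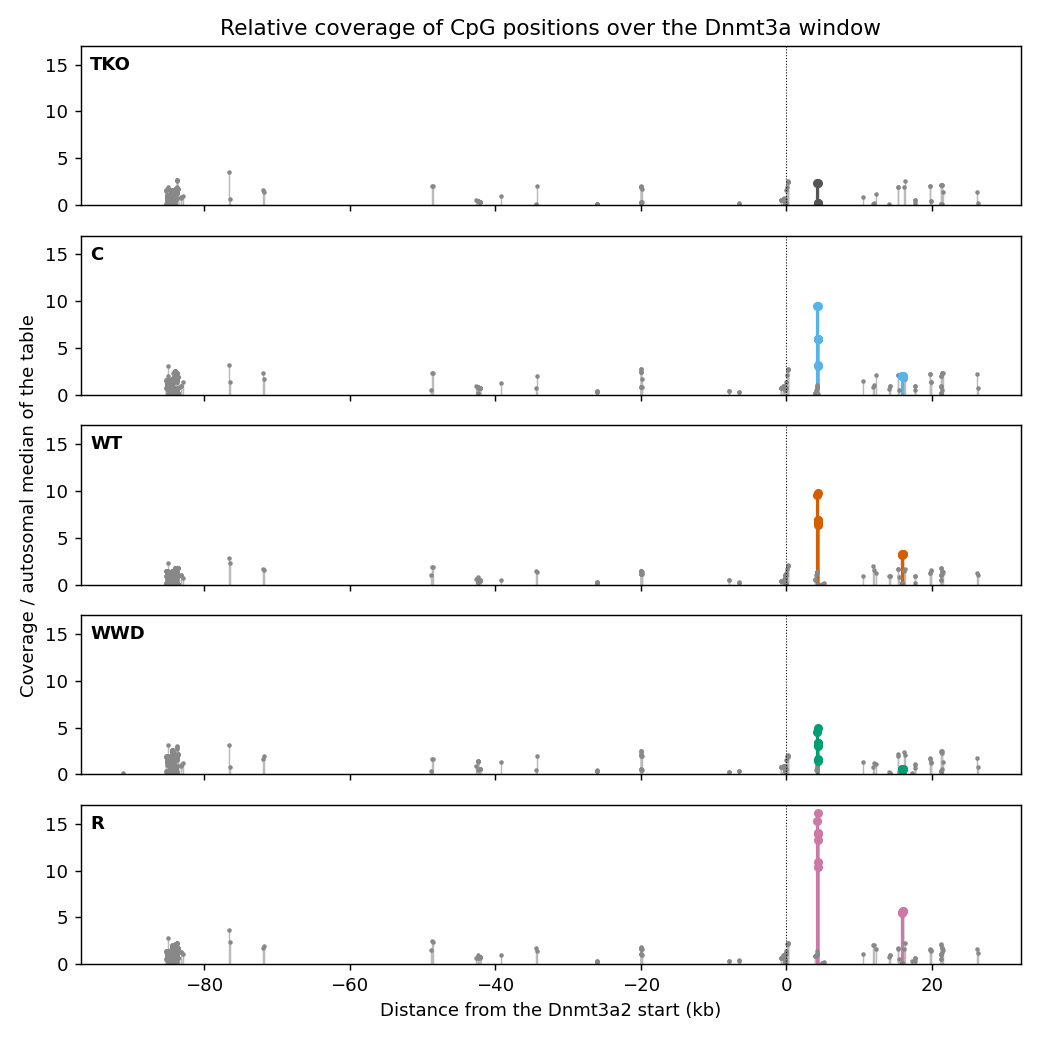
Relative coverage (reads divided by the autosomal median of the table) of each listed CpG position of the Dnmt3a window against its distance from the Dnmt3a2 start in kb, 1 panel per table; coloured points are the 4 read stacks and grey points all other positions. The 3 stacks about 4.3 kb downstream stand above the rest in WT and R and reach 16.1 in R, while in C and WWD the second of them (3.16 and 1.53) lies within the range of the grey points; TKO has relative coverage of 2.34 at the first stack.

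The positions named here lay below the stacks in WT and R, though TKO was thin at some of them. At chr12:3895942, just before the first stack, relative coverage was 0.13 for TKO, 1.01 for C, 1.33 for WT, 0.86 for WWD and 1.37 for R. By the ratio to TKO, 9.89 for WT, this position was not ordinary, and it is among the gained positions given below. At chr12:3895997, the reverse strand of the CpG that opens the first stack, relative coverage was 0.30 for TKO, 0.99 for C, 1.31 for WT, 0.84 for WWD and 1.06 for R. At chr12:3907053, upstream of the fourth stack, it was 1.94 for TKO, 2.10 for C, 1.63 for WT, 1.96 for WWD and 1.61 for R. The 203 other Dnmt3a positions with TKO relative coverage of at least 0.5 had a median ratio to TKO of 1.30 for C, 0.95 for WT, 1.29 for WWD and 1.10 for R. At the CpG that opens the first stack, 1 strand was in a stack and the other was not.

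**Figure D2:**
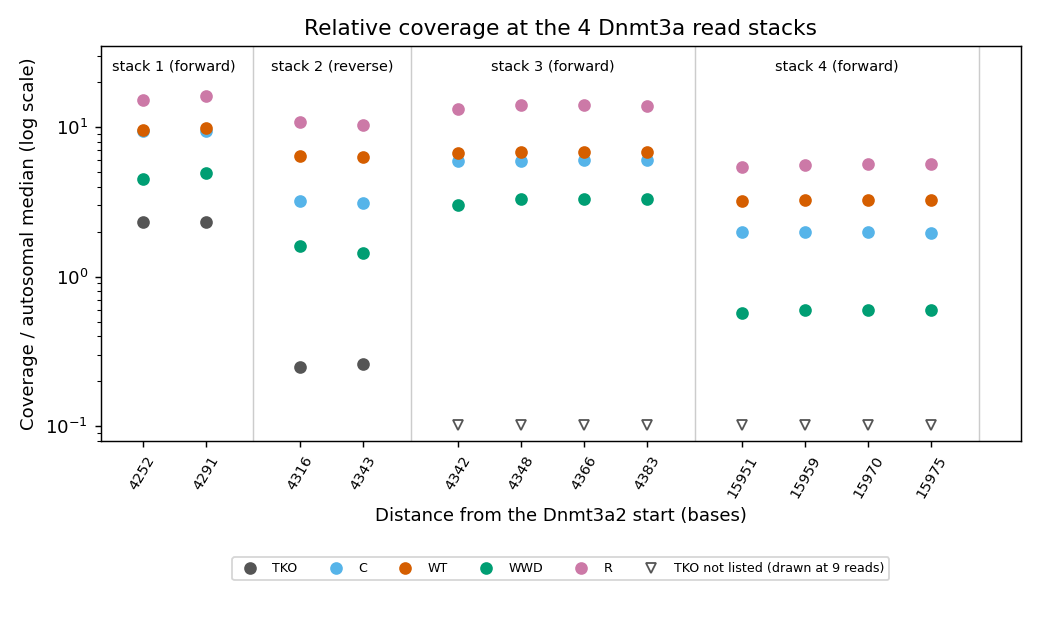
Relative coverage (log scale) at the 12 positions of the 4 Dnmt3a read stacks in each table, placed by their distance in bases from the Dnmt3a2 start; open triangles stand for TKO positions that were not listed, drawn at 9 reads. R is the highest and WWD the lowest of the 4 other tables at each position, and C lies close to WT in stacks 1 and 3 and below it in stacks 2 and 4.

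The extra reads of the first stack differed in amount between the tables. In the first stack the median excess over TKO, in units of the autosomal median, was 7.13 for C, 7.38 for WT, 2.39 for WWD and 13.36 for R. The WWD excess was therefore 0.324 of that of WT, the R excess 1.81 times it and the C excess 0.967 of it. The ratio to WT was 0.487 for WWD, 0.975 for C and 1.62 for R. Of autosomal positions with TKO relative coverage of at least 0.5, 4.81% reached this R to WT ratio. The WWD to WT ratio was reached by 99.6% of such positions, and the C to WT ratio by 94.2%. The stacks were chosen for high coverage in WT and R with no condition on WWD or C, so a low ratio of WWD or C to WT is partly set by that choice, and these ratios are a description. Dividing by total autosomal coverage in place of the median gave 3.31 times TKO for WT, 2.80 for C, 1.50 for WWD and 4.90 for R at chr12:3895996, in the same order. Whether these reads come from the constructs, and whether they follow the amount of Dnmt3a2 protein, was not tested. C, whose labels record no construct, had these reads too.

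By the rule for a gain, relative coverage of at least 4 times TKO in each of WT, WWD and R with unlisted TKO positions set at 9 reads, 17 of 383 tested positions were called at Dnmt3a, 0 of 134 at Dnmt3b and 8 of 120 at Dnmt1. The background over all autosomal positions was 3.68%, against 4.44% of the Dnmt3a positions and 6.67% of the Dnmt1 positions, so the count of calls does not set any of the 3 windows apart. What differs is the height. Of the 17 calls at Dnmt3a, 10 are in the stacks. The other 7 had TKO relative coverage of at most 0.28 and WT relative coverage between 0.79 and 1.96, and the 8 at Dnmt1 had at most 0.15 for TKO and between 1.21 and 1.63 for WT. These are positions where TKO was thin and WT ordinary. The 7 at Dnmt3a, chr12:3842990, chr12:3849446, chr12:3895813, chr12:3895942, chr12:3903653, chr12:3903799 and chr12:3913132, were between 67.57% and 90.78% methylated in WT and between 56.52% and 87.10% in WWD. The 8 at Dnmt1 fall into 4 places, at chr9:20725972-20725975, chr9:20735723-20735730, chr9:20748184-20748218 and chr9:20756778, and ranged from 0.67% to 70.87% in WT. The first stack was not called because WWD reached less than 4 times TKO. With relative coverage of at least 3 in WT and R and under 0.5 or unlisted in TKO, 159 of 859908 autosomal positions qualified, a background of 0.0185%, and 10 of these 159 lie in the Dnmt3a window, with 0 at Dnmt3b and 0 at Dnmt1. Among positions that TKO covered at 0.5 or more, a ratio of at least 4 in WT and R was reached by 2 of 205 at Dnmt3a, both in the first stack, by 0 of 71 at Dnmt3b and by 0 of 77 at Dnmt1, against a background of 0.0739%. These last 2 rules were set after the coverage had been seen.

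At Dnmt3b, a de novo enzyme active in the early embryo, the 71 positions with TKO relative coverage of at least 0.5 had ratios to TKO from 0.59 to 1.46 for WT and from 0.80 to 1.82 for R. The 3 positions whose smallest ratio among WT, WWD and R was the highest were chr2:153512083, chr2:153512309 and chr2:153512358, with 75, 75 and 76 reads for WT and no listing in TKO. At Dnmt1 the 77 such positions had ratios from 0.65 to 2.75 for WT and from 0.70 to 2.93 for R. Both ranges lie below the ratios of 4.11 and 6.53 at the first Dnmt3a stack. The 203 other Dnmt3a positions with such TKO coverage reached 3.69 for WT and 3.81 for R. That WT value lies inside the counting interval of 3.53 to 4.79 at the first stack. No position of any window was called as a loss, at most 1/4 of TKO in WT, WWD and R, against a background of 0.00102%. TKO itself did not list 67 of the 383 Dnmt3a positions that the 4 other tables all list (17.5%), 23 of 133 at Dnmt3b (17.3%) and 16 of 120 at Dnmt1 (13.3%). The background of such positions was 15.1%, so the shares at these genes were near the background.

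Methylation differed between the stacks and between positions of 1 stack. At chr12:3895996 it was 0.00% for TKO, 2.05% for C, 13.39% for WT (95% Wilson interval 11.4 to 15.6), 2.59% for WWD (1.37 to 4.84) and 8.55% for R. On the other strand of the same CpG, at chr12:3895997, outside the stack, it was 3.70% for TKO, 4.55% for C, 73.91% for WT, 67.69% for WWD and 81.08% for R. The forward-strand read stack was thus far less methylated than the other strand in WT, WWD and R. In the second stack chr12:3896087 had 67.47% for WT, 72.07% for WWD and 68.39% for R, while C had 3.37%. The other position of that stack, chr12:3896060, had 35.16% for WT, 12.90% for WWD, 27.32% for R and 0.93% for C, and there WWD differed from WT by -22.26 points (Fisher's exact test, adjusted p = 2.58e-06), under the 25 points of a call. In the third stack the mean over its 4 positions was 16.25% for WT, 4.12% for WWD, 13.73% for R and 0.00% for C. In the fourth stack the mean was 47.63% for WT, 38.71% for WWD, 59.21% for R and 0.00% for C. By Fisher's exact test, WT and WWD differed at chr12:3895996 by -10.80 points (adjusted p = 6.44e-09), which is under the 25 points needed for a call.

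The placed promoters of all 3 genes were nearly unmethylated in every table. Of 7 RefSeq starts, 5 could be placed by their CpG pattern: the first and second starts of Dnmt3a, the Dnmt3a2 start, the Dnmt3b start and the third start of Dnmt1, with 38, 43, 15, 18 and 23 listed CpGs that matched. The other 2 starts of Dnmt1 have 2 and 12 CpGs and were not placed. The means below are over positions listed in all 5 tables within the 300 bases from 250 before a start to 50 after it. At the first start of Dnmt3a the mean was 0.33% for TKO, 0.089% for C, 0.074% for WT, 0.080% for WWD and 0.39% for R (43 positions). At the Dnmt3a2 start it was 1.35% for TKO, 0.00% for C, 0.72% for WT, 0.28% for WWD and 0.48% for R (13 positions). The TKO mean at Dnmt3a2 holds 1 position at 15.79%. With reads pooled, TKO had 0.738%, WT 0.976% and R 0.692% there, and over the 9 positions with at least 20 reads TKO had 0.202%, WT 0.932% and R 0.50%, so the order of the tables is not settled at this promoter. At the Dnmt3b start it was 0.00% for TKO, 0.36% for C, 0.16% for WT, 0.048% for WWD and 0.35% for R (24 positions). At the third start of Dnmt1 it was 0.072% for TKO, 0.13% for C, 0.00% for WT, 0.13% for WWD and 0.12% for R (26 positions). With reads pooled, the upper limit of the 95% Wilson interval in WT was 0.256% at the first start of Dnmt3a, 1.79% at Dnmt3a2, 0.488% at Dnmt3b and 0.0791% at Dnmt1. Pooling counts a read at each CpG it covers, and PCR copies are counted too. The pooled reads are therefore not independent, and these intervals are likely too narrow.

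These low levels were the usual state of placed promoters. Among 8221 placed promoters with at least 5 such positions, the median was 0.182% for WT, 97.7% lay below 5% for WT, and 192 were at 5% or more. In WT the Dnmt3a2 start was at or above 87.6% of them, the Dnmt3b start 44.0%, the first start of Dnmt3a 21.4% and the third start of Dnmt1 11.0%. Within 1 kb of a placed start, 0 positions were called in any of 7 comparisons by Fisher's exact test with an adjusted p below 0.01 and at least 25 points between the tables. In WT against TKO these were 0 of 255 at Dnmt3a, 0 of 97 at Dnmt3b and 0 of 40 at Dnmt1, with 2, 0 and 0 at an unadjusted p under 0.05.

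Other genes of the methylation machinery were taken from a list of 22: the cofactor Dnmt3l and rodent Dnmt3c, the hemimethylation readers Uhrf1 and Uhrf2, the oxidising enzymes Tet1, Tet2 and Tet3, the glycosylases Tdg and Mbd4, methyl-CpG binding proteins, the remodeller Hells, and proteins that link methylation to histones such as Setdb1, Ehmt1, Ehmt2 and Kdm2b. RefSeq promoters were in the table for 16, and 14 promoters of 11 genes were placed. None was methylated above 0.61% for WT, 0.59% for WWD, 0.60% for R, 0.77% for C or 0.42% for TKO. Their median was 0.163% for WT, beside the 0.182% of all placed promoters. Setdb1, a histone H3 lysine methyltransferase, was the highest in WT at 0.61%. Tet1 and Tdg stood at 0.00% for WT.

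Away from the starts, all 3 loci gained methylation in WT and R, and less in WWD. In the following, positions lie more than 1 kb from a placed start and are listed in all 5 tables, and SDs are over positions. At Dnmt3a the mean over 77 positions was 0.54% ± 1.77 (SD) for TKO, 1.18% ± 2.03 for C, 37.20% ± 28.18 for WT, 16.71% ± 22.91 for WWD and 37.32% ± 27.93 for R. At Dnmt1 the mean over 65 positions was 0.59% ± 2.94 for TKO, 0.52% ± 1.08 for C, 38.17% ± 22.24 for WT, 12.35% ± 13.77 for WWD and 38.54% ± 23.94 for R. At Dnmt3b only 15 positions qualified, with means of 1.45% ± 4.21 for TKO, 0.13% ± 0.35 for C, 31.25% ± 18.76 for WT, 8.69% ± 9.66 for WWD and 31.08% ± 18.27 for R. The Dnmt3a mean for WWD moved with the coverage minimum: with at least 20 reads in every table it was 11.28% and with at least 30 it was 7.02%, while WT had 31.80% and 30.11%. The SDs show how far the positions of 1 locus lie apart: in WT 17 of the 77 Dnmt3a positions were under 5% and 29 were at 50% or more. Over all common positions of a window, starts included, the WT mean was 9.19% at Dnmt3a, 4.37% at Dnmt3b and 23.91% at Dnmt1, against 14.71% over the 1263118 common positions of the series. The positions within 1 kb of a start were 239 of 316 at Dnmt3a, 95 of 110 at Dnmt3b and 39 of 104 at Dnmt1.

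**Figure D3:**
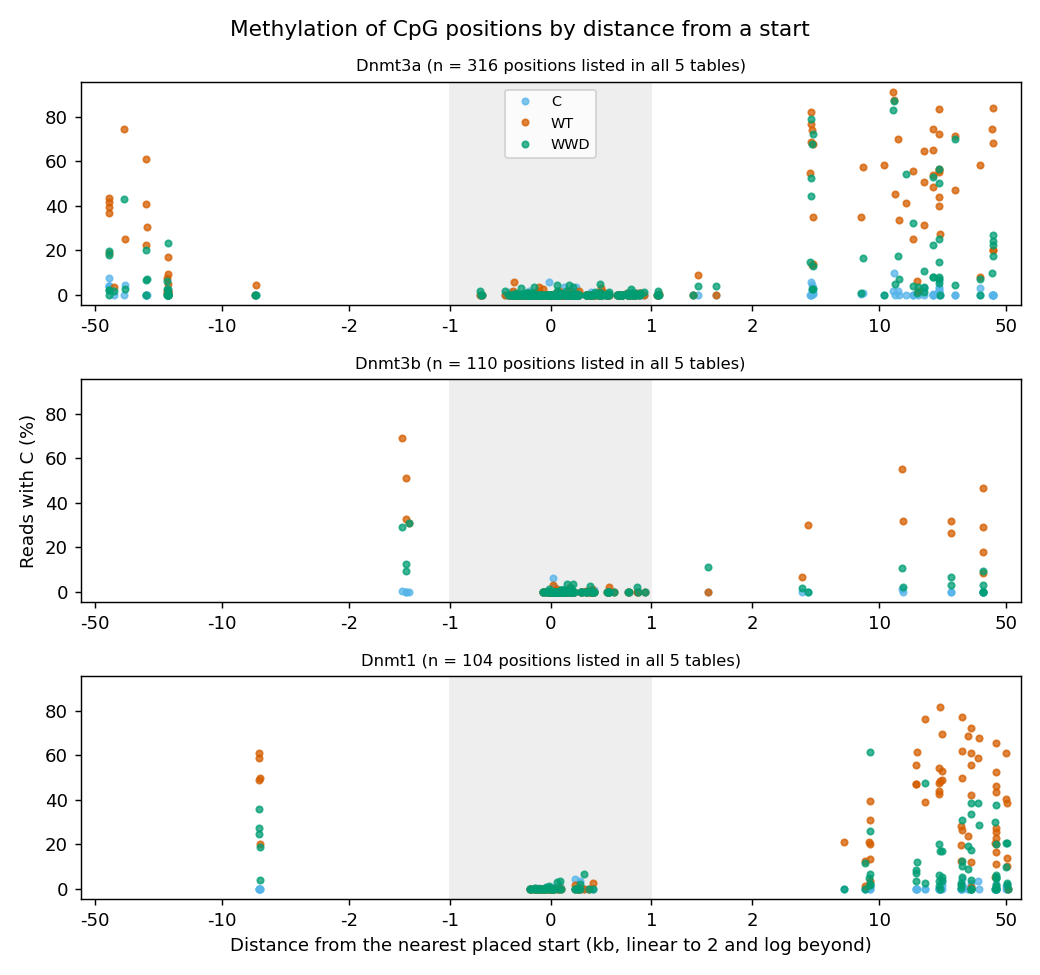
Percent of reads with C at each position listed in all 5 tables against its distance in kb from the nearest placed start (linear to 2 kb, log beyond), for C, WT and WWD; grey bands mark 1 kb to each side. Within the bands WT stays under 6%, and beyond them WT positions reach 90.8% at Dnmt3a, 69.1% at Dnmt3b and 81.5% at Dnmt1 with C near 0.

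WT was higher than TKO at 43 of 332 tested positions of Dnmt3a (13.0%), 9 of 112 of Dnmt3b (8.04%) and 40 of 106 of Dnmt1 (37.7%), and lower at 0, by Fisher's exact test adjusted over all positions of the tables. The background was 22.5% higher and 0.064% lower in WT. Away from the starts the counts were 43 of 77, 9 of 15 and 40 of 66. The background of 22.5% is over all tested positions, those near starts included. It is therefore not a match for these counts, and no background away from starts is given. Whether the loci differ from other positions away from starts was not tested. R was higher than TKO at 45, 6 and 38 positions (background 23.2%), and WWD at 12, 1 and 9 (background 5.21%). Neither was lower than TKO at any position of the windows (background 0.0546% for R and 0.0011% for WWD). WWD was lower than WT at 29 of 389 positions of Dnmt3a, 8 of 135 of Dnmt3b and 33 of 120 of Dnmt1, with a background of 13.4%, and higher at 0, with a background of 0.461%. C was lower than WT at 61, 14 and 53 positions (background 24.4%) and higher at 0 (background 0.000904%). C against TKO had 0 calls in any window by Fisher's exact test, with 4 higher and 2 lower in C at Dnmt3a, 0 and 1 at Dnmt3b and 1 and 1 at Dnmt1 at an unadjusted p under 0.05, and the background of calls was 0.0% higher and 0.0014% lower in C. R against WT also had 0 calls in the windows by that test, with 11 higher and 11 lower in R at Dnmt3a, 0 and 1 at Dnmt3b and 12 and 8 at Dnmt1 at an unadjusted p under 0.05. The background of R against WT was 0.235% higher and 0.0439% lower. The share of Dnmt1 positions higher in WT than in TKO was above the background and that of Dnmt3a and Dnmt3b below it. The loci also differed in how many tested positions lay within 1 kb of a start, where 0 were called. Such positions were 255 of 332 at Dnmt3a, 97 of 112 at Dnmt3b and 40 of 106 at Dnmt1. Away from the starts the 3 loci had similar shares higher in WT than in TKO. For R against TKO the counts there were 45 of 77 at Dnmt3a, 6 of 15 at Dnmt3b and 38 of 66 at Dnmt1. For WWD against TKO they were 12 of 77, 1 of 15 and 9 of 65, so in both the share was lowest at Dnmt3b. The part of nearness to a start in the differing shares was not tested.

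The most methylated Dnmt3a position in WT was chr12:3903653, about 11.9 kb downstream of the Dnmt3a2 start. It stood at 0.00% for TKO, 1.75% for C, 90.78% for WT (95% Wilson interval 86.0 to 94.0), 82.81% for WWD and 87.26% for R. The next, chr12:3903799, had 8% for TKO, 9.86% for C, 87.27% for WT, 87.10% for WWD and 92.52% for R. WWD and WT passed Fisher's exact test at neither of these (adjusted p = 0.319 and 1.0). In contrast, chr12:3849165 upstream of the Dnmt3a2 start had 0.00% for TKO, 0.00% for C, 74.24% for WT, 9.72% for WWD and 75.68% for R, the largest fall among the Dnmt3a calls of WWD against WT (-64.52 points, Fisher's exact test, adjusted p = 5.51e-14). At chr12:3849410 WT had 84.00% and WWD 24.07% (-59.93 points, Fisher's exact test, adjusted p = 3.66e-07), on 25 and 108 reads.

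At Dnmt1 the most methylated position was chr9:20735418, within the window downstream of the placed start. It was at 0.00% for TKO and C, 81.54% for WT (74.0 to 87.3), 17.11% for WWD (11.9 to 23.9) and 79.78% for R. This was also the largest fall of WWD against WT at the locus (-64.43 points, Fisher's exact test, adjusted p = 1.69e-26). The second, chr9:20734870, went from 69.70% for WT to 17.27% for WWD. The other positions with the highest WT levels, chr9:20728664 and chr9:20739146, had 77.01% and 76.27% for WT and 31.11% and 47.50% for WWD.

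At Dnmt3b the highest WT level was at chr2:153473710, at -1475 bases from the start. It was 0.00% for TKO, 0.65% for C, 69.12% for WT (62.5 to 75.1), 29.06% for WWD (23.3 to 35.7) and 68.50% for R. Its neighbour chr2:153473749 had 50.99% for WT, 12.62% for WWD and 37.92% for R. Both lie just beyond the 1 kb belt in which no position was called. The largest fall of WWD against WT was at chr2:153488565 inside the window, from 55.19% to 10.81% (-44.38 points, Fisher's exact test, adjusted p = 5.46e-06).

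WWD was closer to WT at positions where TKO had few reads relative to WT. A position was taken as at full depth where TKO had at least 0.5 of the WT reads, and otherwise as at reduced depth, so the WT reads set the class as much as the TKO reads do. At full depth and away from the starts, the WWD mean was 6.66% against 29.76% for WT over 48 Dnmt3a positions, 6.36% against 27.54% over 11 Dnmt3b positions and 8.71% against 37.92% over 43 Dnmt1 positions. The ratio of the means was 0.224, 0.231 and 0.230 at the 3 loci, beside 0.257 over 909143 full-depth positions of the series. The series values here and below include positions near starts, unlike those of the loci. At reduced depth WWD was closer to WT: 33.34% against 49.51% over 29 Dnmt3a positions (ratio 0.673), 15.10% against 41.45% over 4 Dnmt3b positions (0.364) and 19.47% against 38.65% over 22 Dnmt1 positions (0.504), beside 0.720 over 353975 positions of the series. R stayed near WT in both classes, at 29.29% and 50.61% at Dnmt3a and 36.48% and 42.56% at Dnmt1. WWD lay below WT at 93 of the 102 full-depth positions and at 45 of the 55 reduced-depth ones. The part of TKO depth and of WT depth in this difference was not tested.

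**Figure D4:**
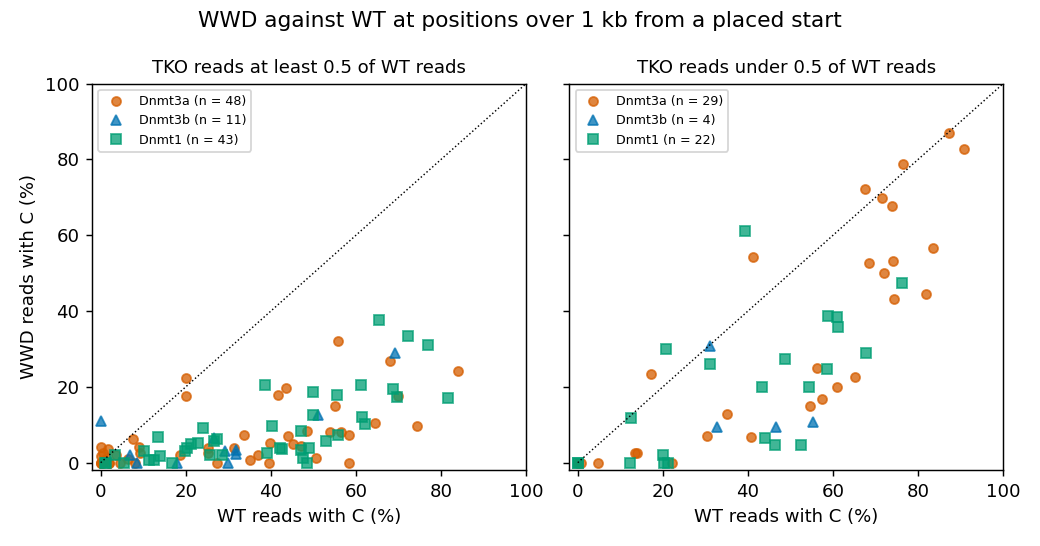
Percent of reads with C in WWD against WT at positions more than 1 kb from a placed start and listed in all 5 tables, 1 point per position, split by whether TKO had at least 0.5 of the WT reads (full depth) or fewer (reduced depth); the dotted line marks equal values. At full depth 93 of the 102 points lie below the line (ratios of the means 0.224 at Dnmt3a, 0.231 at Dnmt3b and 0.230 at Dnmt1), and at reduced depth several Dnmt3a points lie near it.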

How the data were processed

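Genomic DNA was cut with MspI, size-selected, bisulfite-converted and sequenced, per the labels' protocols. Bismark, methylKit and the mm9 build are named, with no versions, in the submitters' processing notes. Per the file headers, each deposited table gives for every CpG position and strand its coverage, a read count, and the percent of C. Another deposited table, which the labels link to no sample, and the percent of T made up 8 columns that were left out. Methylated reads are coverage times percent, rounded. Tables were compared per position by a two-sided Fisher's exact test with Benjamini-Hochberg adjustment over all positions tested in a comparison (Python 3.11.15, scipy 1.17.1, numba 0.67.0). RefSeq promoters were placed by requiring that every listed CpG of a 300-base span fall on a CpG of the sequence. At least 8 had to be listed, with 1 place only, and 8749 of 32851 were placed. On simulated spans 99 of 100 were placed rightly on each of the 3 chromosomes. Those spans were built from the listed CpGs themselves, so differences between the builds were not simulated. In simulated reads for WWD against WT, with 1511414 positions, calls were made at 12 of 50 positions given a change of 25 points, 34 of 50 given 40 points and 0 of the 1511214 left as they were. For WT against TKO they were made at 15 of 50, 39 of 50 and 1 of 1288897. Unchanged positions were drawn from 1 shared rate, with no PCR copies or differences between samples. These counts therefore give no error rate for the real tables. Named positions were every gained position (or the 3 of highest smallest ratio), the 3 highest in WT and the 2 largest falls and rises of WWD against WT per window. The windows, gene list and rules were chosen with earlier results of these data known. Alternatives changed the fold, the scaling, the coverage minimum and the call thresholds.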

Additional observations from a re-analysis of the deposited data

How the results depend on the processing

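No paired analysis was possible because each group has 1 table and no column per sample, so no replicate could be blocked or left out. Positions gained against TKO at Dnmt3a (17), Dnmt3b (0) and Dnmt1 (8) became 100, 7 and 24 at a fold of 2, 26, 0 and 13 at a fold of 3, 4, 0 and 0 at a fold of 8, 11, 0 and 0 with coverage divided by total coverage, and 6, 0 and 6 over positions listed in TKO. They became 0, 0 and 0 where TKO relative coverage was at least 0.5. With WT and R only, chosen after seeing the data, they became 91, 31 and 39, and 2, 0 and 0 with that TKO minimum added. Because TKO had few reads at many of these positions, the count rests on the fold and on the TKO depth.

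Calls of WT against TKO at Dnmt3a fell from 43 to 25 at a coverage minimum of 30, with 1 lower position at an adjusted p under 0.05, and those of R from 45 to 27. Calls of WWD against TKO at Dnmt3a fell from 12 to 6 and 3 at minimums of 20 and 30. At 40 points in place of 25, calls of WWD against WT became 18 at Dnmt3a, 2 at Dnmt3b and 15 at Dnmt1, those of WT against TKO at Dnmt3b became 3, of R 2 and of WWD 0, those of C against WT at Dnmt3b 7, and those of WWD against TKO at Dnmt1 2. At 10 points, WWD against TKO gave 2 at Dnmt3b and 19 at Dnmt1, R against TKO gave 10 at Dnmt3b, and R against WT gave 1 higher position at Dnmt3a and at Dnmt1 and 2 lower at Dnmt1.

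Window means of Dnmt3a at a minimum of 20 reads were 0.204% in TKO, 7.95% in WT, 2.97% in WWD and 7.97% in R, and at 30 reads 0.143%, 6.47%, 1.70% and 6.33%. Pooling reads gave 0.185%, 12.1%, 3.49% and 12.2%, merging strands 9.61% in WT and 4.0% in WWD, and leaving out the stacks 4.01% in WWD. Dnmt3b at 30 reads had 0.156% in TKO, 0.0681% in C, 1.03% in WWD and 3.84% in R, and with reads pooled 0.163% in TKO, 6.0% in WT and 6.68% in R. Dnmt1 at 20 reads had 0.233% in TKO, 6.78% in WWD and 23.6% in R, and at 30 reads 0.184%, 6.43% and 23.4%. Pooling gave 0.196% in TKO, 22.9% in WT, 5.89% in WWD and 22.7% in R, and merging strands 0.652% in TKO, 24.9% in WT and 25.3% in R. Among promoters, at 20 reads Dnmt3b in C became 0.111%, the first start of Dnmt3a in R 0.188%, the second start in TKO 0.575% and Dnmt3a2 in TKO 0.202%. With reads pooled, the first start of Dnmt3a became 0.111% in TKO and 0.161% in R. The cause of these shifts was not tested. At Dnmt3a2 the order of TKO above WT turned, with TKO at 0.202% and WT at 0.932% at 20 reads and at 0.738% and 0.976% with reads pooled. Away from the starts, the WWD mean at Dnmt3a became 11.28% and 7.02% at 20 and 30 reads, 12.17% with reads pooled and 14.63% with strands merged, and the R mean fell to 29.64% at 30 reads. The WWD mean became 6.20% at Dnmt3b and 10.46% at Dnmt1 at 30 reads, and the TKO means 0.295% at Dnmt3a, 0.526% at Dnmt3b and 0.233% at Dnmt1. WWD stayed below WT in each of these. Dividing by total coverage lowered the ratio of C to WT to 0.846 in the first stack and 0.756 in the third. It also lowered the first-stack ratios to TKO, to 3.31 for WT, 2.80 for C, 1.50 for WWD and 4.90 for R. In all, 48 values of subsets and stacks moved beyond their counting interval, 42 of them means near or away from the starts, and 6 stack ratios. Beside these, 41 values of window and promoter means moved. Among the counts of gains and calls, 15 came out clearly higher and 21 clearly lower. For means, the interval was that of the pooled reads and not of the mean itself.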
